A study of Drosophila melanogaster with 12 samples.

Results

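The 10 maltase genes of *Drosophila melanogaster*, *Mal-A1* to *Mal-A8* and the pair *Mal-B1* and *Mal-B2*, are described here in whole adult females with and without the nuclear receptor ERR (estrogen-related receptor). They were chosen by gene name, and all 10 were found among the 17558 genes of the count table. Each had enough reads to be tested in every comparison.

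Maltases are alpha-glucosidases. They release glucose from the ends of maltose, sucrose and short starch fragments, after amylase has cut starch into such fragments, and in flies this digestion takes place mainly in the midgut. They belong to the same glycoside hydrolase family as the amylases. Individual roles of the members are not known well enough to be given gene by gene, so the members are ordered below by cluster and by level.

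RNA-seq was performed on whole females of 2 conditional stocks, with 3 libraries in each of 4 groups, each library from pooled females of an independent experiment. In cond.2 knockouts, labelled ERR[cond.2], heat shock of young adults removed an FRT-flanked ERR::GFP transgene held over the mutant alleles ERR1 and ERR2, and cond.2 controls were siblings of the same genotype with no heat shock. In cond.19-4 knockouts, labelled ERR[cond.19-4], heat shock removed an FRT-flanked endogenous ERR gene in an ERR2 background, and cond.19-4 controls were again siblings with no heat shock. The ERR2 allele, carried in all 4 groups, also lacks parts of 2 neighboring genes, *Atg18a* and *CG7979*. Females of all groups were fed yeast paste and collected 7 d after the heat shock of the knockouts. In both stocks the effects of heat shock and of ERR loss cannot be told apart. The count columns name the alleles by the numbers 1 and 2. The number 2 was read as cond.2 and the number 1, by elimination, as cond.19-4, a match not stated in the sources used here.

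Libraries held between 17167432 and 20625801 counts, of which the 10 maltase genes took between 0.0971% and 0.316%. Levels are given as CPM, counts scaled to the size of the library and to the other libraries. Where genes are compared with each other, levels are given as FPKM, the CPM divided by the gene length in kb. *ERR* had 4.01, 3.25 and 3.81 CPM in cond.19-4 knockouts, against 7.76, 6.38 and 5.62 CPM in their controls, and fell by 0.83 on the log2 scale (SE 0.18, edgeR adjusted p = 0.0228). In cond.2 females *ERR* had 9.53, 10.4 and 10.3 CPM in knockouts, against 8.52, 12.1 and 9.34 CPM in controls. The cond.2 log2 fold change of *ERR* was 0.006 (SE 0.17, edgeR adjusted p = 0.988). Gene-level counts do not separate reads of the transgene from those of ERR1, which leaves most of the gene in place. The excision in cond.2 females was not tested. Cond.2 results are also given from a fit without libraries 1 of both cond.2 groups, an alternative chosen with earlier results of these data known.

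The 8 *Mal-A* genes form a cluster of 24298 bp on chromosome 2R, and the *Mal-B* pair takes up 5656 bp on 2L. Coordinates are those of the count table, whose build was not stated, and all 10 genes have the same coordinates and strand in the Ensembl BDGP6 annotation. *Mal-A1* (FBgn0002570, 2R 8449664 to 8451904, minus strand) opens the cluster, and *Mal-A8* (FBgn0033297, 2R 8471954 to 8473961, plus strand) closes it. *Mal-A2* (FBgn0002569), *Mal-A4* (FBgn0033294), *Mal-A5* (FBgn0050359) and *Mal-A6* (FBgn0050360) lie on the plus strand with *Mal-A8*, and *Mal-A3* (FBgn0002571) and *Mal-A7* (FBgn0033296) on the minus strand with *Mal-A1*. No other gene of the table lies wholly between the outermost members of either cluster. The gap between neighboring members is shortest between *Mal-A5* and *Mal-A6*, at 65 bp, and longest between *Mal-A4* and *Mal-A5*, at 1868 bp. *Mal-B1* (FBgn0032381, 2L 11847226 to 11849169) and *Mal-B2* (FBgn0032382, 2L 11849958 to 11852881) both lie on the plus strand, 788 bp apart.

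The predicted proteins are of similar size, between 534 and 630 residues over all annotated transcripts. Both of these limits come from *Mal-A5*, which has 3 annotated transcripts, and *Mal-B2* also has 3 transcripts, with proteins of 564 to 583 residues. The members are closely related, so reads that match more than 1 of them could have been assigned to either or dropped, and the counts of single members are uncertain to that extent. *Mal-A1* and the cytochrome P450 gene *Cyp4e1* share 82 bp at their ends, on opposite strands and with overlapping exons, so reads there cannot be told apart without strand. *Cyp4e1* had 37 to 247 counts per library, far below *Mal-A1*. *Mal-A8* and *mtt* overlap by 6 bp, and *Pde1c*, with 72 to 167 counts, spans the *Mal-B* pair on the opposite strand without an exon overlap. Whether the counting used strand was not stated.

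*Mal-A1* was the highest maltase transcript per length in all 4 groups. It averaged 459 ± 90.9 FPKM in cond.2 knockouts, against 530 ± 152 FPKM in cond.2 controls (SD, n = 3 each). In cond.19-4 females it averaged 309 ± 9.45 FPKM in knockouts, against 230 ± 30.1 FPKM in controls (SD, n = 3 each). It made up between 38.6% and 46.4% of the summed maltase FPKM in each of the 12 libraries.

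The next places in the order depended on the stock. *Mal-B2* was second in the cond.2 groups, with 216 ± 84.1 FPKM in knockouts, against 402 ± 149 FPKM in controls (SD, n = 3 each). Its range overlapped that of *Mal-A6* in cond.2 knockouts, where *Mal-B2* was the higher of the pair in 2 of 3 libraries. In cond.2 controls its range overlapped that of *Mal-A1*, but *Mal-A1* was higher within each of the 3 libraries. In cond.19-4 females *Mal-B2* came after *Mal-A6* and *Mal-A5*, with 42.7 ± 2.31 FPKM in knockouts, against 31.0 ± 2.84 FPKM in controls (SD, n = 3 each). The ranges of these neighbors did not overlap. *Mal-A6* averaged 120 ± 5.38 FPKM and *Mal-A5* 48.5 ± 2.07 FPKM in cond.19-4 knockouts, and *Mal-A6* averaged 85.2 ± 8.05 FPKM and *Mal-A5* 53.1 ± 0.700 FPKM in their controls (SD, n = 3).

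The remaining *Mal-A* genes, *Mal-A2*, *Mal-A3*, *Mal-A4*, *Mal-A7* and *Mal-A8*, averaged between 16.1 FPKM (*Mal-A2*, cond.19-4 controls) and 60.2 FPKM (*Mal-A8*, cond.2 knockouts). Next neighbors in their order overlapped in range, except that *Mal-A8* lay above the rest in cond.2 knockouts and *Mal-A2* below the rest in cond.19-4 knockouts. Within libraries the order was fixed in cond.19-4 controls only. There it ran *Mal-A4*, *Mal-A3*, *Mal-A8*, *Mal-A7* and *Mal-A2* from high to low in each of the 3 libraries. In the other groups some neighbors changed places, such as *Mal-A3* and *Mal-A4* in cond.19-4 knockouts, where *Mal-A3* was higher in 1 of 3 libraries. *Mal-B1* was the lowest member in every group, at 5.80 and 3.02 FPKM in cond.2 knockouts and controls, and 10.2 and 6.26 FPKM in cond.19-4 knockouts and controls. Its range lay below that of the next member in each group.

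**Figure D1:**
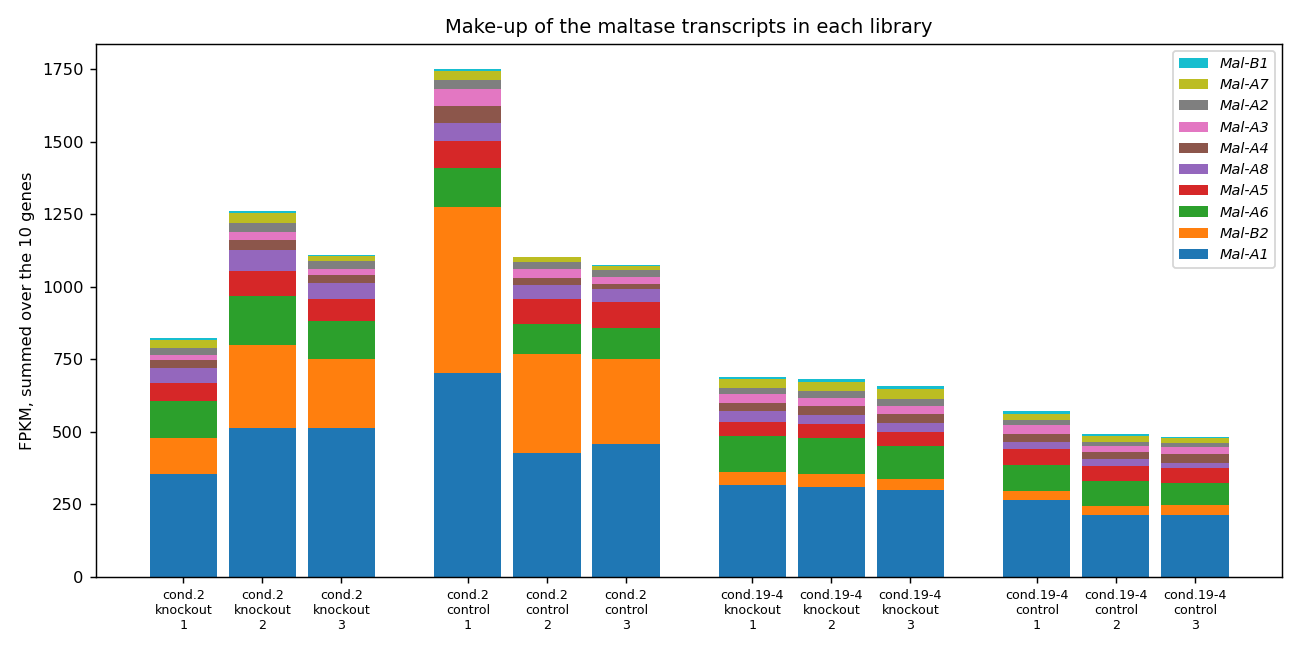
FPKM of the 10 maltase genes (colors) stacked for each of the 12 libraries, with knockout libraries left of the controls of the same stock. *Mal-A1* is the largest block in every library, and the *Mal-B2* block makes up 14.9% to 32.7% of the sum in cond.2 libraries and 5.15% to 7.11% in cond.19-4 libraries.

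The comparison of knockouts with controls gives the transcripts that differed after heat shock and ERR loss together, which cannot be told apart. In cond.19-4 females, 7 of the 10 maltase transcripts rose in knockouts and none fell: *Mal-A1*, *Mal-A2*, *Mal-A6*, *Mal-A7*, *Mal-A8*, *Mal-B1* and *Mal-B2* (edgeR quasi-likelihood test, Benjamini-Hochberg adjusted p under 0.05 over all genes tested). In this comparison 2.67% of the 9717 genes tested were called higher and 1.04% lower. In whole females, a change in the number of cells of a type and one in RNA per cell cannot be told apart. The median log2 fold change of the members was 0.45, against -0.00 over all genes. Knockouts and controls did not overlap for 9 of the 10 members, 8 of them higher in knockouts and 1 lower. Groups that did not overlap were found for 20.4% of all genes, 10.3% higher and 10.1% lower.

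The steepest rise was that of *Mal-A7*, with 82.0, 81.2 and 96.1 CPM in cond.19-4 knockouts, against 59.2, 54.5 and 41.7 CPM in controls (1.67-fold, log2 fold change 0.74, SE 0.11, edgeR adjusted p = 0.00156). *Mal-A8* had 63.9, 61.0 and 55.6 CPM in knockouts, against 43.9, 38.3 and 31.4 CPM in controls (1.59-fold, log2 fold change 0.67, SE 0.10, edgeR adjusted p = 0.00207). For both genes the lowest knockout library lay above the highest control library.

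*Mal-A6* had 282, 281 and 260 CPM in cond.19-4 knockouts, against 212, 198 and 175 CPM in controls (1.41-fold, log2 fold change 0.50, SE 0.06, edgeR adjusted p = 5.43e-04). *Mal-A1*, the most abundant member, had 578, 567 and 544 CPM in knockouts, against 484, 389 and 388 CPM in controls (1.34-fold, log2 fold change 0.43, SE 0.08, edgeR adjusted p = 0.00581). The knockout libraries of these genes lay close together, and the control library 1 was the one nearest to them. *Mal-A2* had 42.9, 45.7 and 43.8 CPM in knockouts, against 38.1, 30.5 and 29.6 CPM in controls (1.35-fold, log2 fold change 0.43, SE 0.09, edgeR adjusted p = 0.0189).

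Both genes of the *Mal-B* pair rose as well. *Mal-B2* had 101, 103 and 93.2 CPM in cond.19-4 knockouts, against 68.3, 68.3 and 79.8 CPM in controls (1.38-fold, log2 fold change 0.47, SE 0.07, edgeR adjusted p = 0.00123). *Mal-B1* had 16.5, 19.3 and 19.6 CPM in knockouts, against 14.8, 10.7 and 8.58 CPM in controls (1.62-fold, log2 fold change 0.70, SE 0.17, edgeR adjusted p = 0.0375). The groups did not overlap for either gene, and *Mal-B1*, the lowest member, had the largest SE.

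The other 3 members did not pass the test. *Mal-A3* had 57.3, 52.2 and 52.6 CPM in cond.19-4 knockouts, against 51.7, 38.8 and 46.8 CPM in controls, narrowly apart (log2 fold change 0.24, SE 0.09, edgeR adjusted p = 0.214). *Mal-A4* had 49.4, 53.4 and 55.9 CPM in knockouts, against 52.2, 44.9 and 50.5 CPM in controls, which overlapped (log2 fold change 0.11, SE 0.07, edgeR adjusted p = 0.525). *Mal-A5* was the member with a lower level in knockouts, at 107, 99.9 and 99.1 CPM, against 111, 113 and 110.5 CPM in controls (log2 fold change -0.13, SE 0.05, edgeR adjusted p = 0.199). Its knockout libraries all lay below its control libraries.

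Control library 1 was the highest of the cond.19-4 controls for 8 members, and control library 3 the lowest for 7. The calls of *Mal-A1*, *Mal-A6*, *Mal-A7*, *Mal-A8* and *Mal-B2* were kept without any 1 of the 6 libraries. That of *Mal-A2* was lost without knockout 1 or 2 or control 2 or 3 (edgeR adjusted p up to 0.107), and that of *Mal-B1* without any library but control 1 (edgeR adjusted p up to 0.162). When the cond.2 libraries shared one fit and one estimate of the spread with these, none of the 7 was called, although every fold change kept its direction (edgeR adjusted p between 0.106 and 0.777).

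**Figure D2:**
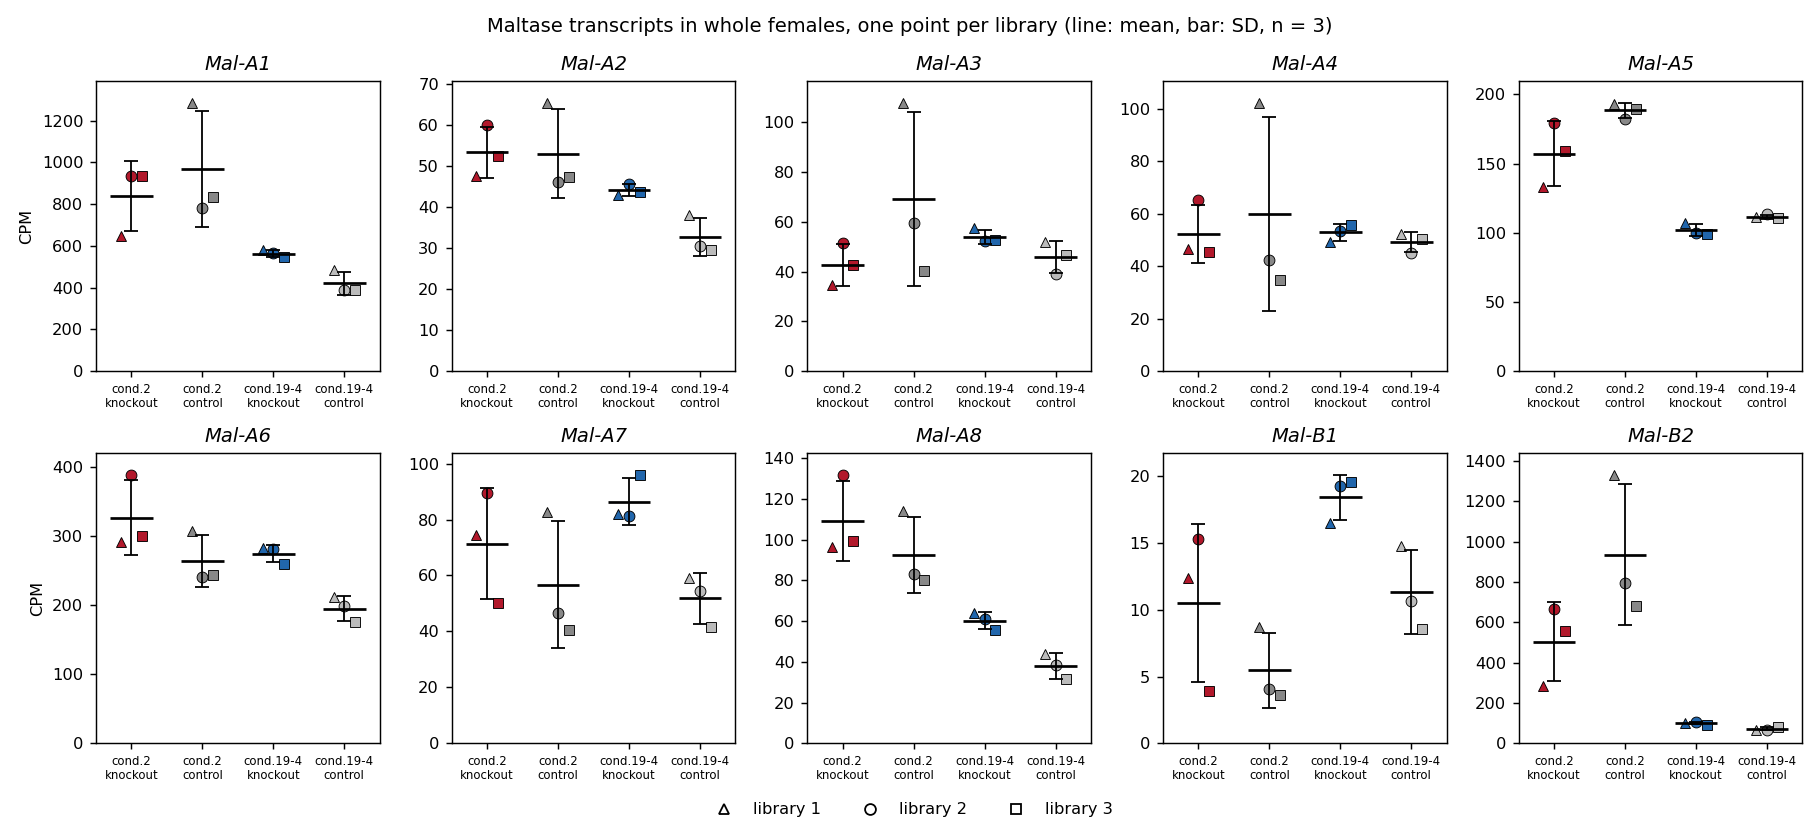
CPM of each maltase gene (own axis from 0) in the 12 libraries, with knockouts left of their controls; symbols give the library number, lines the mean and bars the SD (n = 3). In cond.19-4 females the knockout points lie above all control points for 8 genes, and in cond.2 females control library 1 is the highest of the controls for all 10.

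In cond.2 females none of the 10 maltase transcripts was called by edgeR or by DESeq2. By edgeR 0.631% of the 9660 genes tested were called, and by DESeq2 6.08%. At an unadjusted p under 0.05, edgeR gave 2 members, *Mal-A5* and *Mal-B2*, beside 22.4% of all genes. The median log2 fold change was -0.10 over the members and -0.01 over all genes. The SE of the members lay between 0.11 and 0.53, against 0.05 to 0.17 in cond.19-4 females.

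*Mal-B2* had 286, 665 and 559 CPM in cond.2 knockouts, against 1332, 792 and 682 CPM in controls (log2 fold change -0.90, SE 0.35, edgeR adjusted p = 0.203). *Mal-A5* had 133, 180 and 159 CPM in knockouts, against 193, 183 and 190 CPM in controls (log2 fold change -0.27, SE 0.11, edgeR adjusted p = 0.220). For these 2 members all knockout libraries lay below all control libraries, as they did for 13.8% of all genes.

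The other 8 members overlapped between cond.2 knockouts and controls. *Mal-A1* had 647, 935 and 935 CPM in knockouts, against 1286, 779 and 836 CPM in controls (log2 fold change -0.21, SE 0.23, edgeR adjusted p = 0.601). *Mal-A3* had 34.4, 51.2 and 42.5 CPM in knockouts, against 108, 59.5 and 40.2 CPM in controls (log2 fold change -0.70, SE 0.34, edgeR adjusted p = 0.264). *Mal-B1* had 12.4, 15.3 and 3.90 CPM in knockouts, against 8.70, 4.10 and 3.60 CPM in controls (log2 fold change 0.94, SE 0.53, edgeR adjusted p = 0.324). The fold changes of *Mal-A2*, *Mal-A4*, *Mal-A6*, *Mal-A7* and *Mal-A8* lay between -0.20 (*Mal-A4*) and 0.33 (*Mal-A7*) on the log2 scale.

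Single libraries weighed on the cond.2 values. Control library 1 was the highest of its group for all 10 members. Knockout library 1 was the lowest of its group for 7 members, and knockout library 2 the highest for 9. The summed level of the 3 yolk protein genes was 29290, 38780 and 49890 CPM in knockouts, against 98590, 57670 and 88210 CPM in controls. That of 6 follicle cell genes was 23060, 19270 and 12030 CPM in knockouts, against 4250, 10860 and 7362 CPM in controls. The groups did not overlap in either sum. The part of these differences in the maltase levels was not tested.

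Without libraries 1 of both cond.2 groups, 7 of the 10 log2 fold changes were positive, against 5 with all 6 libraries, and their median was 0.37. Since a high control and a mostly low knockout library are left out, an upward move follows from that choice and is no sign of a change. *Mal-A6* then had a log2 fold change of 0.50, *Mal-A7* of 0.67 and *Mal-A8* of 0.49. Those of *Mal-A1* and *Mal-A4* turned positive, at 0.20 and 0.51, and those of *Mal-A3* and *Mal-B2* moved to -0.10 and -0.28. Without control library 1 alone, *Mal-A3* was at -0.24 and *Mal-B2* at -0.56. Without knockout library 2, values moved the other way, with 4 of 10 positive and a median of -0.19, and *Mal-A6* was at 0.16, *Mal-A7* at 0.13 and *Mal-A8* at 0.076. No member was called in any of these fits. The lowest edgeR adjusted p without libraries 1 was 0.258, in a fit that called 0.196% of all genes.

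**Figure D3:**
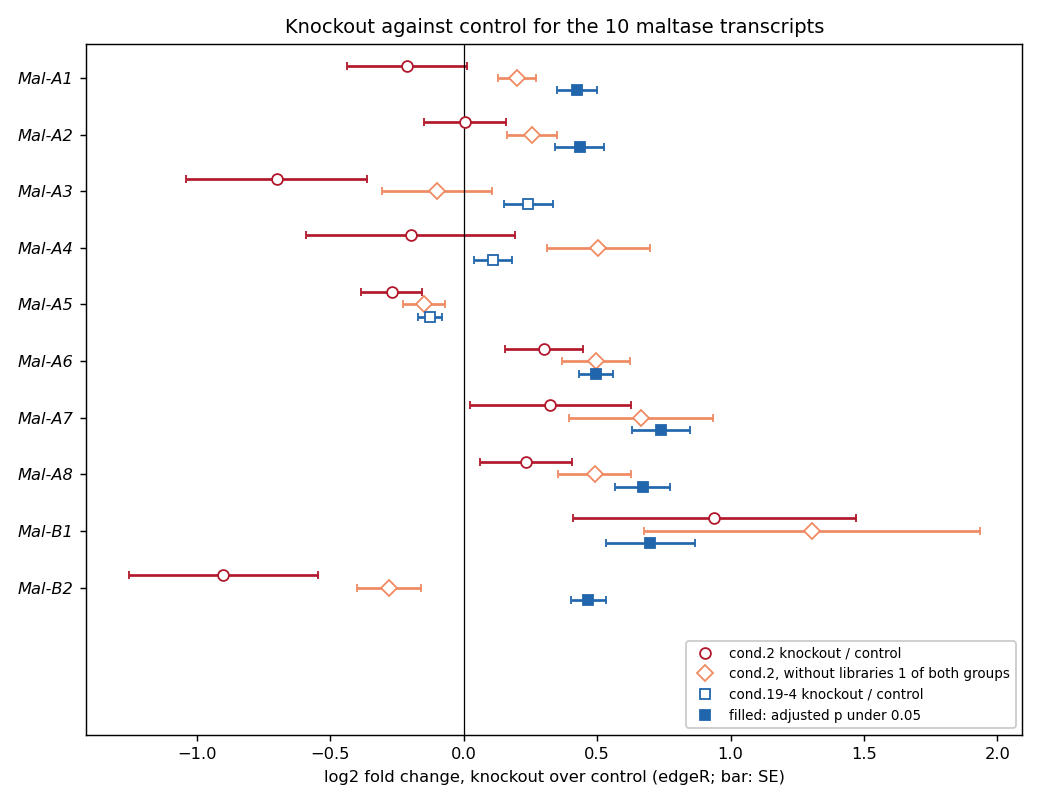
Log2 fold change of knockout over control (bars: SE) for the 10 maltase genes in cond.2 females with all 6 libraries (circles), in cond.2 females without libraries 1 of both groups (diamonds) and in cond.19-4 females (squares), with filled symbols for an adjusted p under 0.05. The 7 filled squares are all positive, and no cond.2 value passes the test.

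The difference between the knockout changes of the 2 stocks was tested in a fit of all 12 libraries. None of the 10 members was called by edgeR or by DESeq2. At an unadjusted p under 0.05 edgeR gave 3 members, beside 22.2% of all genes. By edgeR 0.0598% of the 10029 genes tested were called, and by DESeq2 5.86%. The log2 fold change was lower in cond.2 than in cond.19-4 females for 9 members, *Mal-B1* being the exception, with a median difference of -0.41 over the members and -0.00 over all genes. Without libraries 1 of both cond.2 groups it was lower for 7 members, with a median of -0.11, and without cond.2 knockout 2 for all 10, with a median of -0.56.

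The widest gap was that of *Mal-B2*, whose change in cond.2 minus that in cond.19-4 females was -1.36 on the log2 scale (SE 0.40, edgeR adjusted p = 0.115). All 3 cond.2 knockouts lay below their controls and all 3 cond.19-4 knockouts above theirs. Of all genes, 13.8% lay below in cond.2 and 10.3% above in cond.19-4 females, and the share with both was not computed. Without libraries 1 of both cond.2 groups the *Mal-B2* difference was -0.73. *Mal-A3* differed by -0.93 (SE 0.39, edgeR adjusted p = 0.191) and *Mal-A1* by -0.63 (SE 0.26, edgeR adjusted p = 0.192). Without libraries 1 these were -0.33 and -0.21, and without cond.2 control 1 alone -0.47 and -0.37. *Mal-A5* was below its controls in all knockout libraries of both stocks, with a difference of -0.13 between the changes (SE 0.12, edgeR adjusted p = 0.549). Neither of its changes was called. Of all genes, 13.8% lay below in cond.2 and 10.1% below in cond.19-4 females, and the share below in both was not computed.

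The largest differences in maltase transcripts lay between the control females of the 2 stocks. Each stock had its own libraries, so stock and handling cannot be told apart here. In cond.2 controls, 6 of the 10 members were higher than in cond.19-4 controls and none was lower by edgeR: *Mal-A1*, *Mal-A2*, *Mal-A5*, *Mal-A6*, *Mal-A8* and *Mal-B2*. In this comparison 22.7% of all genes were called higher and 24.2% lower. The median log2 difference was 0.65 over the members, against -0.02 over all genes.

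*Mal-B2* had 1332, 792 and 682 CPM in cond.2 controls, against 68.3, 68.3 and 79.8 CPM in cond.19-4 controls. This is a 13.0-fold difference (log2 difference 3.70, SE 0.31, edgeR adjusted p = 1.13e-05), and the lowest cond.2 library lay far above the highest cond.19-4 library. Its neighbor *Mal-B1* had 8.70, 4.10 and 3.60 CPM in cond.2 controls, against 14.8, 10.7 and 8.58 CPM in cond.19-4 controls, which overlapped by a narrow margin (log2 difference -1.06, SE 0.44, edgeR adjusted p = 0.0647). The members of the *Mal-B* pair, 788 bp apart, thus had differences of opposite sign, that of *Mal-B1* short of the threshold. *Mal-B1* was called lower by DESeq2 (log2 difference -1.04, adjusted p = 0.0327) and by edgeR without cond.2 control 1 (log2 difference -1.55, adjusted p = 0.0189).

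In the *Mal-A* cluster, *Mal-A8* was 2.44-fold higher in cond.2 controls (log2 difference 1.29, SE 0.16, edgeR adjusted p = 9.61e-05) and *Mal-A1* 2.30-fold higher (log2 difference 1.20, SE 0.19, edgeR adjusted p = 3.37e-04). *Mal-A5* was 1.69-fold higher, with 193, 183 and 190 CPM in cond.2 controls, against 111, 113 and 110.5 CPM in cond.19-4 controls (edgeR adjusted p = 5.67e-05). *Mal-A2* was 1.62-fold higher (edgeR adjusted p = 0.00175) and *Mal-A6* 1.35-fold higher (edgeR adjusted p = 0.0124). The cond.2 controls lay above the cond.19-4 controls in every library for these 5 genes and *Mal-B2*, as they did for 27.0% of all genes. *Mal-A3*, *Mal-A4* and *Mal-A7* overlapped between the control groups (log2 differences 0.59, 0.28 and 0.13). *Mal-A3* was called without cond.2 control 3 (log2 difference 0.90, edgeR adjusted p = 0.00787), and the call of *Mal-A6* was lost without cond.19-4 control 3 (edgeR adjusted p = 0.0552).

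Among the neighbors outside the clusters, *CG42751*, 548 bp beyond *Mal-B2* on the same strand, was 9.54-fold higher in cond.2 controls by the fit (log2 difference 3.25, edgeR adjusted p = 1.07e-04). *Cyp4e1*, which overlaps *Mal-A1*, had a log2 difference of 2.32 (edgeR adjusted p = 2.05e-04), and *mtt*, at the other end of the *Mal-A* cluster, one of 0.07 (edgeR adjusted p = 0.851). The other flanking genes of the 2 clusters had too few counts to be tested.

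**Figure D4:**
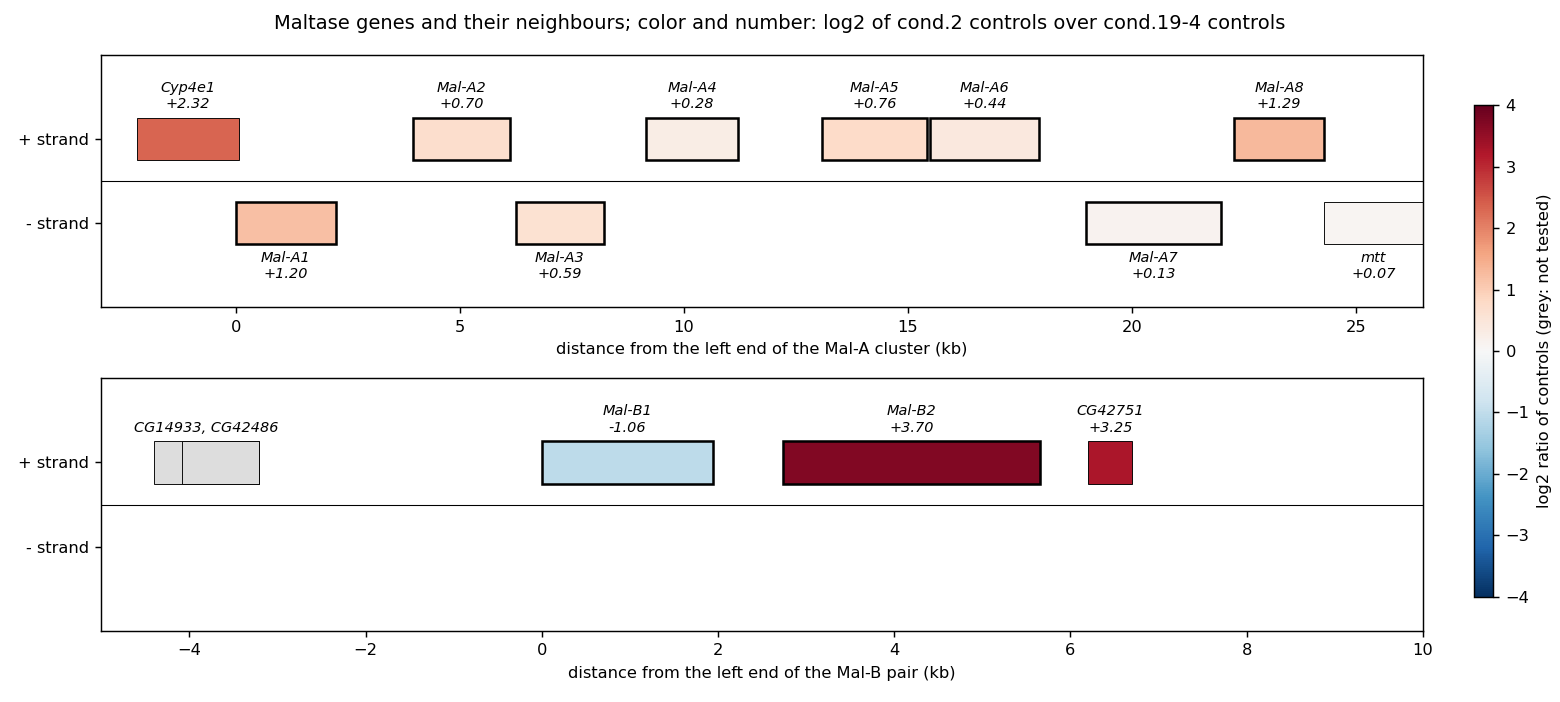
Maltase genes (thick outlines) and their flanking genes by strand, drawn to scale as distance in kb from the left end of each cluster, with color and number giving the log2 difference of cond.2 controls over cond.19-4 controls. *Mal-B2* stands at 3.70 beside *Mal-B1* at -1.06, and in the *Mal-A* cluster the values run between 0.13 and 1.29 (grey: not tested; *mtt* runs beyond the frame, and *Pde1c*, which spans the *Mal-B* pair, is not drawn).

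The levels of most pairs of members went up and down together from library to library. Over the 12 libraries the correlation of log2 CPM was positive for 38 of the 45 pairs of members, with a median Pearson r of 0.43. After the 4 group means were removed it was positive for all 45 pairs, with a median of 0.72. These are descriptions over 12 libraries that share depth, pooled females and the libraries 1 named above. The same values were not computed for all genes, so no pattern particular to the maltases is shown. *sls*, a gene outside the family picked as most like *Mal-A1*, reached 0.92 with it after the group means were removed. Among the members, the highest values after removing group means were 0.98 for *Mal-A6* and *Mal-A8*, 0.93 for *Mal-A3* and *Mal-A4*, 0.92 for *Mal-A7* and *Mal-B1*, and 0.92 for *Mal-A1* and *Mal-A2*. Of these 4 pairs, *Mal-A3* with *Mal-A4* and *Mal-A1* with *Mal-A2* are direct neighbors on the chromosome. The other direct neighbors ranged between 0.16 (*Mal-B1* and *Mal-B2*) and 0.82 (*Mal-A2* and *Mal-A3*), with *Mal-A4* and *Mal-A5* at 0.31.

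Of all genes tested over the 12 libraries, those with the pattern most like that of *Mal-A1* were *sls*, *ine*, *CG5646*, *Cyp9f2* and *CG6834*, with Pearson r between 0.97 and 0.98. *sls* encodes the muscle titin homolog Sallimus, and *ine* a transporter of the sodium-coupled neurotransmitter transporter family. Those most like *Mal-B2* were *NimB2*, *CG3246*, *wdp*, *CG8468* and *Idgf2*, each with r of 1.00 after rounding. These 5 genes were picked by r over the same 12 libraries, so that they followed the stock as *Mal-B2* did comes from the choice. *NimB2* averaged 546 and 1033 CPM in cond.2 knockouts and controls, and 62.1 and 44.9 CPM in cond.19-4 knockouts and controls. With group means removed, none of the 5 genes nearest to *Mal-A1* or to *Mal-B2* stayed among the nearest 5 by that measure, although their r then still lay between 0.89 and 0.95. By Spearman's rho, 2 of the *Mal-A1* list and none of the *Mal-B2* list stayed.

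Of 8 tested genes for other steps of starch and sugar digestion and related glucosidases, 1 rose and 1 fell in cond.19-4 knockouts, with a median log2 fold change of 0.03. *Amyrel*, an amylase-related gene, rose to 9.33 CPM in cond.19-4 knockouts, against 4.07 CPM in controls (log2 fold change 1.19, SE 0.26, edgeR adjusted p = 0.0241). *Amy-p*, a main amylase, fell by 0.29 on the log2 scale (SE 0.07, edgeR adjusted p = 0.0407), with 1368 CPM in knockouts, against 1678 CPM in controls. *Amy-d*, a second amylase gene, did not share this fall (log2 fold change 0.01, SE 0.08, edgeR adjusted p = 0.957). The glucosidase gene *tobi* had a log2 fold change of 0.06 (edgeR adjusted p = 0.817).

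Among 3 relatives in the same glycoside hydrolase family, 2 fell in cond.19-4 knockouts. *AGBE*, the glycogen branching enzyme, fell by 1.82 on the log2 scale (SE 0.05, edgeR adjusted p = 6.32e-10), and it also fell by 2.20 in cond.2 knockouts (SE 0.10, edgeR adjusted p = 9.35e-05). *CD98hc*, the heavy chain of amino acid transporters, fell by 0.29 in cond.19-4 knockouts (SE 0.04, edgeR adjusted p = 0.00129). No member of the maltase clusters was called lower in either stock. None of 7 tested sugar transporters was called (median log2 fold change 0.10 in cond.19-4 females), and of 12 regulators of sugar sensing only *sug*, which encodes the transcription factor Sugarbabe, was called, lower in cond.19-4 knockouts (log2 fold change -0.69, SE 0.15, edgeR adjusted p = 0.0219).

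Digestive proteases of the midgut moved in both directions. Of 28 genes for trypsins, Jonah serine proteases and the lipase *mag*, 3 rose and 6 fell in cond.19-4 knockouts, with a median log2 fold change of -0.14. Those that rose were *etaTry* (log2 fold change 0.55), *kappaTry* (0.47) and *lambdaTry* (0.23). Those that fell were *mag* (-0.68), *Jon99Cii* (-0.62), *Jon65Aii* (-0.53), *Jon99Ciii* (-0.52), *Jon65Aiv* (-0.50) and *Jon25Bii* (-0.45).

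Midgut and other tissue markers are given beside these results. Of 9 tested midgut markers, only *mex1* was called in cond.19-4 knockouts (log2 fold change 0.52, SE 0.10, edgeR adjusted p = 0.0110), and the median over the list was 0.05. The summed level of the midgut markers was 709 to 769 CPM in cond.19-4 knockouts, against 576 to 762 CPM in controls, which overlapped. Of 5 fat body markers only *apolpp* was called, higher (log2 fold change 0.23, list median 0.22). Of 3 Malpighian tubule markers only *Uro* was called, also higher (log2 fold change 0.65, list median 0.02). None of the yolk, follicle cell or germline markers was called. In cond.2 females the midgut sum was 548 to 921 CPM in knockouts, against 876 to 1670 CPM in controls, also overlapping. Between the controls, where 22.7% of all genes were called higher in cond.2 females and 24.2% lower, 4 of 10 midgut markers were higher and 1 lower. Of 5 fat body markers 3 were higher: *Apoltp* by 4.40, *Mtp* by 2.99 and *apolpp* by 0.71 on the log2 scale. *Lsp2* (log2 difference -0.30) and *Fbp1* (0.42) were not called. All 3 yolk protein genes were higher, and all 6 follicle cell markers were lower. Of the 8 tested genes for other starch and sugar digestion and related glucosidases, 6 were higher, *GCS1* and *GCS2alpha* among them. The digestive proteases and lipase went mostly the other way, with 2 of 28 genes higher and 19 lower in cond.2 controls (median log2 difference -1.12). The part of any of these tissue markers in the maltase levels was not tested.

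**Figure D5:**
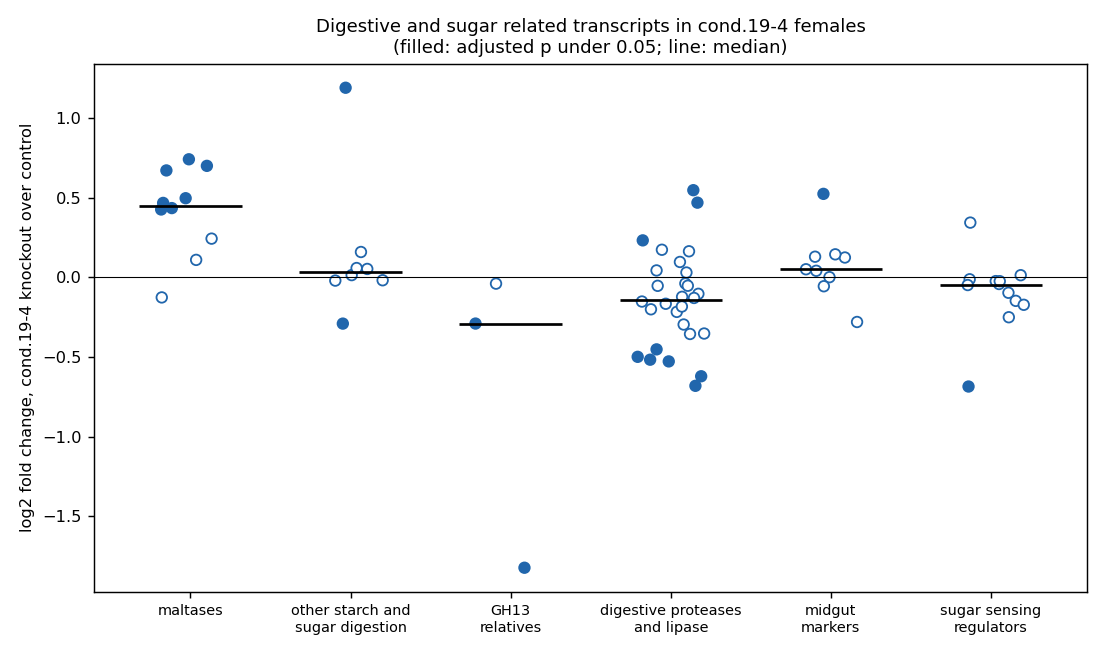
Log2 fold change of cond.19-4 knockout over control for the maltases and for 5 lists of digestive and sugar related genes, one point per gene, filled at an adjusted p under 0.05, with a line at each median. The maltase median stands at 0.45, and those of the other 5 lists drawn (other starch and sugar digestion with related glucosidases, glycoside hydrolase relatives, digestive proteases and lipase, midgut markers and sugar sensing regulators) lie between -0.29 and 0.05.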

How the data were processed

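The authors made cDNA with the NEBNext Ultra kit and used TopHat for alignment and HTSeq for the gene counts, as the study's methods and the submitters' processing notes name them. Their versions, the build and the strand setting were not stated. The deposited table holds raw counts per gene for 12 libraries (17167432 to 20625801 counts each), with a gene length given by the authors, used for FPKM. No row lacked a gene name. The depth limits low members most: *Mal-B1* is the lowest.

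Counts were fitted with edgeR 4.0.16 (R 4.3.3; TMM, filterByExpr, quasi-likelihood F test, SE from the log2 fold change and F), with each stock on its own 6 libraries, and the difference of changes and the controls on all 12. p-values were Benjamini-Hochberg adjusted over all genes of a fit (threshold 0.05). DESeq2 1.42.0, other scalings and filters, 1 fit of all libraries, a replicate block, fits lacking 1 library each or libraries 1 of both cond.2 groups, and a threshold of 0.01 were alternatives. The fits were tested on simulated data. Log2 CPM for correlations used a prior count of 2. Tables were made with pandas 2.3.3 and numpy 2.4.6 in Python 3.11.15, and figures with matplotlib 3.10.9.

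The members, gene lists and alternatives were chosen with earlier results of these data known. Genes named were all 10 members, *ERR*, the flanking genes of each cluster, the 5 genes with the highest Pearson r to the most abundant *Mal-A* and *Mal-B* member, and up to 4 called genes of each list per stock with the lowest p. Beyond 4, *lambdaTry*, *etaTry*, *Jon65Aii*, *Jon65Aiv* and *Jon25Bii* were named after their values were seen, to complete counts. *tobi* and *NimB2* values serve to describe levels. *Amy-d*, *Lsp2* and *Fbp1* were also named after their values were seen. No sequence is printed, since none was used here.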

Additional observations from a re-analysis of the deposited data

Results flagged for a closer look

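The knockout change of *Mal-B2* pointed in opposite directions in the 2 stocks. All 3 cond.2 knockouts lay below their controls and all 3 cond.19-4 knockouts above theirs, and the change in cond.2 minus that in cond.19-4 females was -1.36 on the log2 scale. The cond.2 fall was not called (log2 fold change -0.90, edgeR adjusted p = 0.203) and was -0.28 without libraries 1 of both cond.2 groups. Of the 5 genes most like *Mal-B2*, *NimB2*, *CG3246* and *CG8468* had the same pattern, and *wdp* and *Idgf2* overlapped in cond.2 females. These 5 genes were picked for their likeness to *Mal-B2* over the same libraries. A shared pattern follows from that choice and is no separate evidence. By edgeR the difference of the *Mal-B2* changes did not pass the test (adjusted p = 0.115), with an adjusted p between 0.0506 and 0.328 over the alternatives.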

How the results depend on the processing

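Under 1 fit of all 12 libraries 0 of the 7 cond.19-4 members were called. Counts of all genes called moved by over 1.5 times as follows. For cond.2 (61 called) they were 558 with DESeq2, 97 with every gene of at least 1 count, 1414 in 1 fit of all 12 libraries, 19 without libraries 1 of both groups, 16 at an adjusted p under 0.01, and 15 to 44 with a library left out. For cond.19-4 (360 called) they were 94 in 1 fit of all 12 libraries, 197 at 0.01, and 224 to 420 with a library left out. For the difference of changes (6 called) they were 488 with DESeq2, 3 with total counts as library size, 40 with every gene of at least 1 count, 26 without libraries 1, 1 at 0.01, and 1 to 489 with a library left out. For the controls 4707 genes were called, 3878 to 4751 with a library left out. With a library left out, 5 to 7 members were called in cond.19-4 females and 5 to 7 between the controls.

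Total counts as library size shifted the median of all genes between the controls to -0.19. The share of calls that were higher was then 29.3%, against 48.4%, and for cond.2 it was 43.6%, against 26.2%. By DESeq2 the higher share for cond.2 was 47.9%. Under that scaling *Mal-A6* was at 0.26 and lost its call (edgeR adjusted p = 0.0778), *Mal-B1* was called lower at -1.25 (edgeR adjusted p = 0.0202), and *Mal-A7* was at -0.062. Less the shift these were 0.44, -1.07 and 0.12, close to the values in the report.

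Other reversals of log2 values were these. With 1 library left out, values in cond.2 knockouts ranged between -0.35 and 0.044 for *Mal-A1*, -0.089 and 0.18 for *Mal-A2*, and -0.47 and 0.43 for *Mal-A4*. For the difference of changes they ranged between -0.59 and 0.33 for *Mal-A4* and -0.13 and 0.75 for *Mal-B1*, and between the controls from -0.33 to 0.59 for *Mal-A4* and -0.24 to 0.35 for *Mal-A7*. Without libraries 1 of both cond.2 groups, *Mal-A1* was at 0.20 and *Mal-A4* at 0.51 in cond.2 knockouts, *Mal-A4* at 0.41 and *Mal-A6* at 0.014 for the difference of changes, and *Mal-A4* at -0.33 and *Mal-A7* at -0.23 between the controls. None of these members had passed the test there, and the cause was not tested.

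No shared effect of the replicate number was seen: deviations of same-numbered libraries correlated at -0.30, -0.17 and 0.01 in cond.2 and 0.02, 0.05 and -0.00 in cond.19-4 females. With 3 libraries per group, such values cannot exclude a pairing by experiment. The replicate block gave 9 called genes for cond.2, 387 for cond.19-4, 1 for the difference and 1564 for the controls, with 0, 7, 0 and 4 members.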
